A study of Mus musculus with 20 samples.

Results

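The homeostatic microglia genes are 10 genes by which resting microglia are recognised in RNA of the brain: Cx3cr1, P2ry12, P2ry13, Gpr34, Csf1r, Tmem119, Siglech, Fcrls, Aif1 and Sall1. They were taken by name as the rows of the count table whose Ensembl gene ID carries one of these symbols, and all 10 were found among its 29200 genes. Of the 10, 7 averaged 50 counts or more across the 20 libraries and were tested with the 12153 genes that passed this limit. Aif1, Fcrls and Gpr34 had fewer, and their tests come from a fit without the limit over all 29200 genes.

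The libraries were made from cerebellum of C57BL6/N mice, a model of spinocerebellar ataxia type 3. In the knock-in line (304Q/304Q), both alleles of the murine Atxn3 gene carry 304 CAG repeats under the endogenous promoter, interrupted by CAA per the study's methods, and in the control mice (WT/WT) neither allele does. The 4 groups of 5 mice are WT/WT at 2 months, 304Q/304Q at 2 months, WT/WT at 12 months and 304Q/304Q at 12 months, all male per the study's methods, and the knock-in mice descend from 1 founder. The comparisons ask how these genes differ between the genotypes at each age, how they change with age in each genotype, and whether the change with age differs between the genotypes (the interaction).

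Microglia are the resident macrophages of the brain and spinal cord. In the healthy adult they survey the tissue with fine, moving processes, and their survival depends on signalling through the colony stimulating factor 1 receptor. Their homeostatic programme of surface receptors is maintained by transforming growth factor beta and by the transcription factor Sall1, and it is known to be lowered in single microglia that turn to a phagocytic, disease-associated state.

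Sequence upstream of the RefSeq start of transcription is shown for Cx3cr1 and Fcrls, which were called in a comparison below, and for P2ry12, a widely used marker of homeostatic microglia. Cx3cr1 (ENSMUSG00000052336) lies at chr9:119901616-120069879 on the minus strand, P2ry12 (ENSMUSG00000036353) at chr3:59216272-59262871 on the minus strand and Fcrls (ENSMUSG00000015852) at chr3:87250758-87263738 on the minus strand (GRCm38, GENCODE M21, all protein coding). The 250 bases before each RefSeq start (GRCm38.p6) are at chr9:120068297-120068546, chr3:59262986-59263235 and chr3:87263525-87263774, and read from 5′ to 3′ on the strand of the gene. The RefSeq and GENCODE starts differ. By GENCODE the whole Cx3cr1 window and most of the Fcrls window, its AGGAAGT and GAGGAA matches included, lie inside the gene. The P2ry12 window lies upstream of its gene in both. Capitals mark matches on either strand to AGGAAGT or GAGGAA, each part of the GAGGAAGT type of site that ETS factors such as PU.1 bind, or to TATAAA, the core of a TATA box.
Cx3cr1: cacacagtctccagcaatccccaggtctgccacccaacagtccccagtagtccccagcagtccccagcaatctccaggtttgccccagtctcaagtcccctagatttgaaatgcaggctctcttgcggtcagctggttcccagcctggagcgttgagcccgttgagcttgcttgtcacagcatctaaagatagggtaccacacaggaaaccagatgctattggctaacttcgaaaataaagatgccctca
P2ry12: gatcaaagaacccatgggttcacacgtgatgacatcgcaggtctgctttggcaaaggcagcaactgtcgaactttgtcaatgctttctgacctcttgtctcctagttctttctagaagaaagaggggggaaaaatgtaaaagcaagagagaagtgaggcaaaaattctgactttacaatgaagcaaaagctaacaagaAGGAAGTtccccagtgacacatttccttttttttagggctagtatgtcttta
Fcrls: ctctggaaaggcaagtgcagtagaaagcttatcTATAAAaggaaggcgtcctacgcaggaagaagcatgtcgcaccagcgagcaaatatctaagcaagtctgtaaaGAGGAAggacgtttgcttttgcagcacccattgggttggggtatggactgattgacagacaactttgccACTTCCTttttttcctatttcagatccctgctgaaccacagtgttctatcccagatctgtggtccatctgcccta

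RefSeq promoters were at hand for 7 of the 10 genes, in 9 entries because Sall1 has several starts. The whole GAGGAAGT occurred in 0 of the 9 entries, against 2.44% of all 32851 promoter windows of the same length. AGGAAGT occurred in 3 of the 9, upstream of P2ry12 at 52 bases before the start, of Fcrls at 75 bases and of 1 Sall1 start at 181 bases, against 7.69% of all windows. GAGGAA occurred in 3 of the 9, upstream of P2ry13 at 48 bases, Fcrls at 144 bases and Aif1 at 7 bases, against 23.3% of all windows. TATAAA occurred only in the Fcrls window, at 217 bases, against 12.4% of all windows. The window of Cx3cr1 held none of these motifs. Among the 10 genes, Csf1r shares 873 of its 5774 exon bases with Hmgxb3 on the opposite strand, Cx3cr1 78 with the antisense gene Gm33858 and P2ry12 9 with Med12l, and since the use of strand in counting is not given, reads of these stretches may belong to either gene.

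Library totals ranged from 11385380 to 27636687 counts, and the deepest library was replicate 1 of the 304Q/304Q mice at 2 months. Atxn3, the targeted gene, was between 158 and 240.5 normalized counts in 304Q/304Q and between 239.8 and 332 in WT/WT mice at 2 months, and between 181 and 220.1 against 201.5 and 234 at 12 months, so the groups overlapped at both ages. Purkinje cell and granule cell markers, which define the cerebellum, summed to at least 1745 and 1604 CPM (counts scaled to library size) in every library. In 6 libraries the choroid plexus markers Ttr, Folr1 and Kl summed to over 100 CPM (304Q/304Q replicate 3 at 2 months, WT/WT replicates 1, 2 and 5 and 304Q/304Q replicates 1 and 3 at 12 months), and calls lost or gained without them are given beside the 10 genes and the other genes above the limit on counts. Genes outside the 10 that were below that limit were not refitted without these libraries. Skeletal muscle markers reached 217.5 CPM in 304Q/304Q replicate 5 at 12 months and at most 12.1 CPM elsewhere.

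All 10 genes were detected in every library. Per length of exon, Csf1r had the highest level with 5.55 ± 1.07 RPKM (reads scaled to exon length and library size, SD, n = 20), followed by P2ry12 with 3.91 ± 0.976, Cx3cr1 with 3.44 ± 0.779 and Tmem119 with 3.39 ± 1.10 RPKM. Sall1 reached 2.59 ± 0.423, P2ry13 1.63 ± 0.452, Fcrls 1.37 ± 0.442, Siglech 1.22 ± 0.373, Gpr34 0.991 ± 0.433 and Aif1 0.670 ± 0.360 RPKM. Neighbours in this order differed by less than the sum of their SDs, except Sall1 and P2ry13, and the gene listed higher was above its lower neighbour in 12 (Fcrls and Siglech) to 18 (Sall1 and P2ry13) of the 20 libraries. Over the 20 libraries the coefficient of variation of normalized counts was lowest for Sall1 with 16.4% and highest for Aif1 with 53.7%, and Aif1 also had the fewest reads, from 2 to 28 a library. The 5 mice of a group spread around their mean as drawn in the plot of each gene by mouse.

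**Figure D1:**
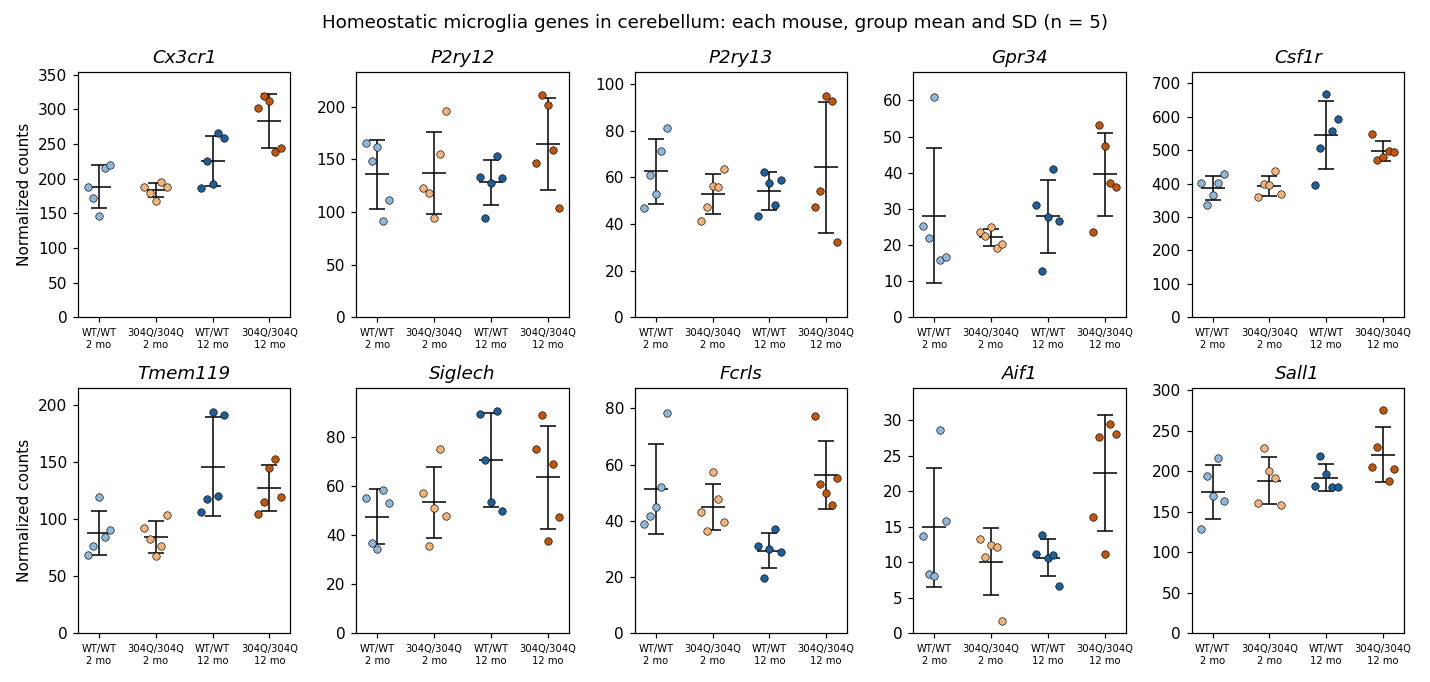
Normalized counts (y axis, linear and from 0) of the 10 homeostatic microglia genes in each mouse, by genotype and age (x axis). Points are mice and bars give the mean and SD of 5 mice, and the 304Q/304Q mice at 12 months have the highest group mean for Cx3cr1, P2ry12, P2ry13, Fcrls, Aif1, Gpr34 and Sall1 and the WT/WT mice at 12 months for Csf1r, Tmem119 and Siglech.

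At 2 months none of the 10 genes differed between the genotypes by the test. Genes were called differentially expressed (DEG) at an adjusted p no higher than 0.05 (edgeR, quasi-likelihood, Benjamini-Hochberg) if the log2 fold change was also 0.5 or more in either direction. Of the 7 genes tested with the limit on counts, 0 were DEGs and 0 had an unadjusted p under 0.05, where 1 of 12153 genes (0.00823%) was a DEG, 6 (0.0494%) passed the adjusted p alone and 674 had an unadjusted p under 0.05. Their log2 fold changes of 304Q/304Q over WT/WT ran from −0.26 (P2ry13) to 0.17 (Siglech) with a median of 0.02, beside a median of −0.0016 over all genes tested. The 95% intervals reached from −0.30 to 0.22 for Cx3cr1, from −0.20 to 0.23 for Csf1r, from −0.40 to 0.45 for P2ry12 and from −0.44 to 0.35 for Tmem119, so that changes of over 0.5 in either direction lie outside the intervals of these 4 genes. In the fit without the limit, where 0.0103% of genes were DEGs, Aif1 had −0.55 (interval −1.44 to 0.34), Gpr34 −0.33 (−1.01 to 0.36) and Fcrls −0.20 (−0.68 to 0.29), and these intervals are too wide to exclude such a change.

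At 12 months 1 of the 10 genes was higher in 304Q/304Q mice by the rule, Fcrls, which encodes an Fc receptor-like scavenger receptor found on microglia. Fcrls stood at 31.2, 19.8, 29.9, 37.1 and 28.9 normalized counts in the WT/WT mice and at 77.2, 53.1, 50, 45.8 and 55.2 in the 304Q/304Q mice, replicates 1 to 5 in each. Every 304Q/304Q mouse was above every WT/WT mouse. The log2 fold change was 0.94 (standard error 0.251, interval 0.43 to 1.45, adjusted p = 0.0184 by edgeR without the limit on counts, a fit in which 1.57% of all genes were DEGs). The call was lost without WT/WT replicate 2 (0.82, adjusted p = 0.0653), without 304Q/304Q replicate 1 (0.80, adjusted p = 0.0869) and, with 2 WT/WT and 3 304Q/304Q mice left, without the libraries over 100 CPM of choroid plexus markers (0.64, adjusted p = 0.492).

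Of the 7 genes tested with the limit, 0 were DEGs at 12 months and 0 passed the adjusted p alone, where 375 genes (3.09%) were DEGs and 1523 (12.5%) passed the adjusted p. Cx3cr1, the receptor for the neuronal chemokine fractalkine, had the lowest unadjusted p of the 7 (0.0145), and only Cx3cr1 had one under 0.05, with 3321 genes under it in all. It stood at 187, 225, 192, 266 and 259 normalized counts among WT/WT and at 301, 319, 312, 239 and 244 in 304Q/304Q mice, so that 3 of the 5 304Q/304Q mice were above all WT/WT mice and the other 2 lay among them. The log2 fold change was 0.32 (standard error 0.123, interval 0.07 to 0.58, adjusted p = 0.0855 by edgeR).

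Aif1, which encodes the actin-binding protein Iba1 that is stained to show microglia in sections, gave the largest log2 fold change of the 10 at 12 months and did not pass the test. It stood at 11.1, 13.9, 10.7, 11 and 6.66 normalized counts among WT/WT and at 16.5, 27.7, 11.25, 29.4 and 28.1 in 304Q/304Q mice. Replicate 3 of the 304Q/304Q mice lay among the WT/WT mice and the other 4 were above them. The log2 fold change was 1.08 (standard error 0.436, interval 0.20 to 1.96, adjusted p = 0.19 by edgeR without the limit), on 6 to 28 reads a library.

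The other 7 genes had log2 fold changes between −0.20 and 0.50 at 12 months. The ADP receptors P2ry12, which guides microglial processes to sites of injury, and P2ry13 had 0.35 (interval −0.07 to 0.78) and 0.24 (−0.26 to 0.73), and the lysophosphatidylserine receptor Gpr34 had 0.50 (−0.17 to 1.165). Sall1 had 0.20 (−0.08 to 0.47). The mean was lower in 304Q/304Q mice for Csf1r with −0.13 (−0.34 to 0.08), for Tmem119, a surface protein of microglia, with −0.20 (−0.58 to 0.18) and for the sialic acid-binding lectin Siglech with −0.15 (−0.64 to 0.34). Over the 10 genes in the fit without the limit, 7 log2 fold changes were positive and the median was 0.28, beside 0 over all genes. With 3 surrogate variables in the fit P2ry12 and P2ry13 had −0.040 and −0.13, so their direction depends on that setting.

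**Figure D2:**
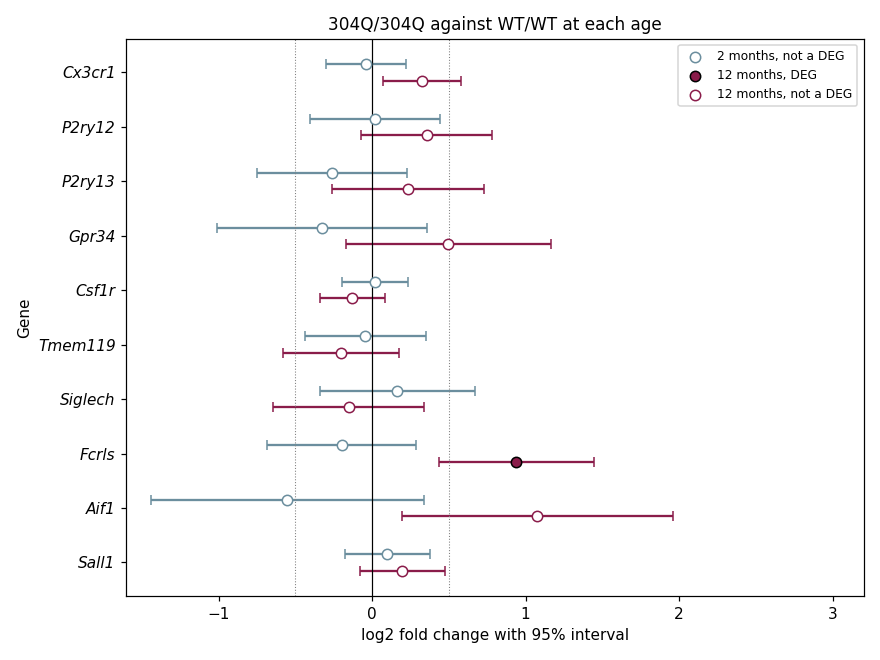
Log2 fold changes of 304Q/304Q over WT/WT mice (x axis) with 95% intervals for the 10 genes (y axis) at 2 and 12 months, 5 mice a group. Filled points are DEGs, open points are not, and dotted lines mark the threshold of 0.5; only Fcrls at 12 months, with 0.94, is filled. Aif1, Fcrls and Gpr34 are from the fit without the limit on counts.

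Some genes of other cell types differed between the genotypes at 12 months as well, where 3.09% of all genes above the limit were DEGs. The blood genes summed to 96.2 to 111.8 CPM in 304Q/304Q and 116 to 246.5 CPM in WT/WT mice, and 4 of 5 were DEGs, all lower. Oligodendrocyte genes summed to 3301 to 4578 CPM against 5041 to 5747 CPM, and 2 of 6 were DEGs, both lower, among them Mobp, a component of myelin, with −0.80. Macrophages of the brain's borders share Csf1r and Cx3cr1 with microglia, and their 9 markers summed to 15.7 to 18.9 CPM in 304Q/304Q and 16.6 to 22.45 CPM in WT/WT mice, and each of the 9 had reads in at least 19 of the 20 libraries. Their log2 fold changes went both ways, 4 positive and 5 negative with a median of −0.088, and 1 of the 9 was a DEG, the haemoglobin scavenger receptor Cd163 (−1.225, adjusted p = 0.0143 by edgeR without the limit, where 1.57% of all genes were DEGs). Purkinje cell markers summed to 1745 to 2052 CPM in 304Q/304Q and 2209 to 2618 CPM in WT/WT mice, and of the 3 Pcp2 was a DEG (−0.59) and Calb1 also passed the adjusted p (−0.26), both lower. Of 5 astrocyte genes 1 was a DEG, Aldh1l1, lower with −0.52, while 2 of the 5 log2 fold changes were positive and the median was −0.094. The astrocyte genes summed to 2182 to 2338 CPM in 304Q/304Q and 2252 to 2458 CPM in WT/WT mice, so the groups overlapped. The 8 monocyte and neutrophil markers together stayed at or below 2.26 CPM in every library. The part of these cells in the values of the homeostatic genes was not tested, and in RNA of whole cerebellum fewer cells of a type and less RNA per cell cannot be told apart.

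In the main fit, Tmem119 was a DEG with age in WT/WT mice and Cx3cr1 in 304Q/304Q mice. Tmem119 had a higher mean at 12 months in both genotypes, and its call depended on the setting in both. In WT/WT mice 1 of the 7 tested genes was a DEG between 12 and 2 months, Tmem119, where 314 of all genes (2.58%) were DEGs. Tmem119 stood at 68.5, 76.4, 119, 85 and 90.5 normalized counts at 2 months and at 107, 118, 194.5, 120.3 and 192 at 12 months. Replicate 3 at 2 months lay above 2 of the 12-month mice, and replicates 3 and 5 at 12 months were far above the other 3. Its log2 fold change was 0.73 (standard error 0.187, interval 0.35 to 1.12, adjusted p = 0.0138 by edgeR). The call was lost without replicate 3 at 12 months (0.61, adjusted p = 0.0573) and without replicate 5 at 12 months (0.62, adjusted p = 0.0518). It was also lost by edgeR with surrogate variables (0.72, adjusted p = 0.0507) and with trends of GC content and length removed (0.54, adjusted p = 0.0568). With only the 2 groups compared it was lost narrowly (0.73, adjusted p rounding to 0.05).

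Csf1r, on which the survival of microglia depends, passed the adjusted p in both genotypes with a log2 fold change below 0.5. In WT/WT mice it went from 401, 335, 367, 401.5 and 427 normalized counts at 2 months to 396, 505, 669, 558 and 595 at 12 months, with replicate 1 at 12 months among the younger mice. The log2 fold change was 0.49 (standard error 0.103, adjusted p = 0.00366 by edgeR), and 11.5% of all genes passed the adjusted p in this comparison. It exceeded 0.5, and Csf1r was then a DEG, without 1 of 5 libraries in turn (WT/WT replicates 1, 4 and 5 at 2 months with 0.51, 0.51 and 0.53, and replicates 1 and 2 at 12 months with 0.59 and 0.52) and without the libraries over 100 CPM of choroid plexus markers (0.665, adjusted p = 0.00278). In 304Q/304Q mice it went from 359.9, 399, 395, 436 and 369 to 548, 469, 479.9, 499 and 495 normalized counts with no overlap, the log2 fold change being 0.35 (standard error 0.103, adjusted p = 0.0368 by edgeR), where 7.26% of all genes passed the adjusted p. Over 22 other settings, single libraries left out included, the adjusted p of Csf1r in 304Q/304Q mice ran from 0.00402 to 0.109 (edgeR or DESeq2). This pass thus depended on the setting.

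In 304Q/304Q mice 1 of the 7 tested genes was a DEG with age, Cx3cr1, where 277 of all genes (2.28%) were DEGs. It stood at 187, 179, 167.5, 195 and 188.5 normalized counts at 2 months and at 301, 319, 312, 239 and 244 at 12 months, and every older mouse was above every younger one. Its log2 fold change was 0.62 (standard error 0.123, interval 0.37 to 0.88, adjusted p = 0.0017 by edgeR). Leaving out any 1 library kept the call. It was lost without all 6 libraries over 100 CPM of choroid plexus markers, 3 of them from 304Q/304Q mice (0.51, adjusted p = 0.0857, 4 against 3 mice). Tmem119 in the same mice went from 92.9, 82.6, 67.6, 77.1 and 104 to 105, 115, 145, 153 and 119 normalized counts, again without overlap. For Tmem119 edgeR gave 0.58 on the log2 scale (standard error 0.186, adjusted p = 0.0625). It was a DEG by DESeq2 without (adjusted p = 0.0307) and with surrogate variables (adjusted p = 0.0287). By edgeR it was a DEG with surrogate variables (0.57, adjusted p = 0.0477), with only the 2 groups compared (0.58, adjusted p = 0.0301) and without replicate 5 at 2 months (0.66, adjusted p = 0.0457).

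The remaining members did not pass the test with age in either genotype. Siglech had 0.57 (interval 0.07 to 1.07) in WT/WT and 0.25 (−0.24 to 0.75) in 304Q/304Q mice, P2ry12 −0.08 (−0.51 to 0.35) and 0.25 (−0.17 to 0.67), P2ry13 −0.21 (−0.71 to 0.28) and 0.28 (−0.21 to 0.77), and Sall1 0.13 (−0.14 to 0.41) and 0.23 (−0.04 to 0.51). Cx3cr1 in WT/WT mice had 0.26 (−4.6e-05 to 0.52). Without the limit on counts, where 1.41% of genes were DEGs with age among WT/WT and 1.19% among 304Q/304Q mice, Aif1 had −0.48 (−1.38 to 0.415) and 1.145 (0.27 to 2.01) and Gpr34 0.00 (−0.69 to 0.68) and 0.82 (0.15 to 1.49), none with an adjusted p under 0.05 by edgeR.

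Fcrls was the only member with a lower level in every older than in every younger WT/WT mouse. Its 2-month values in WT/WT mice were 38.8, 41.9, 44.7, 52 and 78.4 normalized counts, all above the 19.8 to 37.1 of the WT/WT mice at 12 months. Its log2 fold change was −0.81 (standard error 0.252, interval −1.32 to −0.30, adjusted p = 0.0554 by edgeR without the limit). The adjusted p was 0.0291 with edgeR's filterByExpr and 0.0319 with DESeq2. Over 21 other settings, these included, it ran from 0.0291 to 0.386 (edgeR or DESeq2), so passing depended on the setting. Without WT/WT replicate 5 at 2 months the log2 fold change was −0.60. In 304Q/304Q mice Fcrls had 43.1, 36.5, 57.2, 47.7 and 39.6 normalized counts at 2 months, within reach of the 45.8 to 77.2 at 12 months, with a log2 fold change of 0.33 (interval −0.16 to 0.81).

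**Figure D3:**
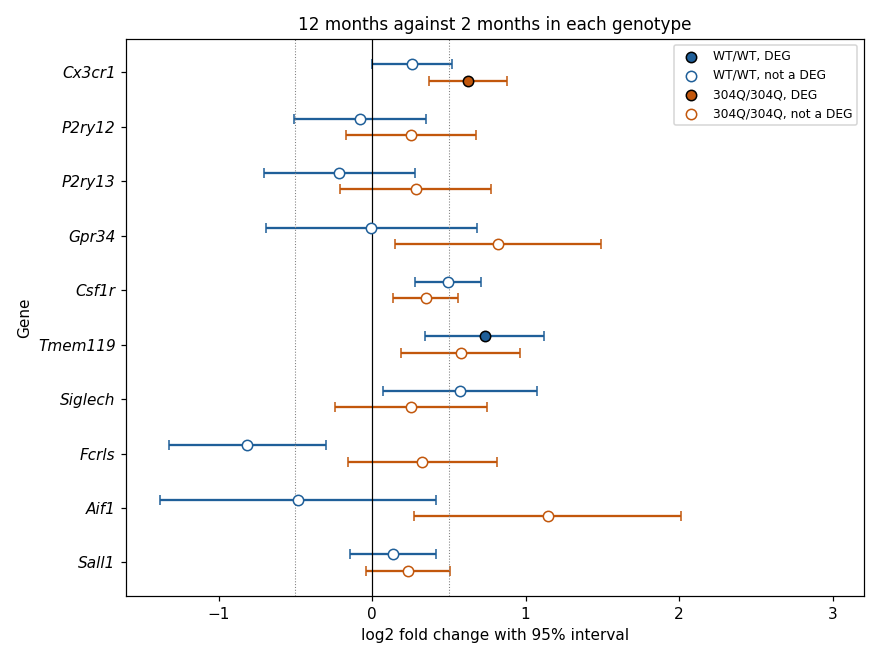
Log2 fold changes of 12 over 2 months (x axis) with 95% intervals for the 10 genes (y axis) in WT/WT and 304Q/304Q mice, 5 mice a group. Filled points are DEGs, open points are not, and dotted lines mark the threshold of 0.5; Tmem119 in WT/WT (0.73) and Cx3cr1 in 304Q/304Q mice (0.62) are filled. Aif1, Fcrls and Gpr34 are from the fit without the limit on counts.

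The change with age was not shown to differ between the genotypes for any of the 10 genes. By edgeR's test of the interaction, 114 of the 12153 genes (0.938%) were DEGs, 237 (1.95%) passed the adjusted p alone and 1934 had an unadjusted p under 0.05, and of the 7 members 0 passed and 1 (Cx3cr1) had an unadjusted p under 0.05. Cx3cr1 had an interaction of 0.36 on the log2 scale (interval 0.00 to 0.73, adjusted p = 0.314). Without the limit on counts, where 0.401% of genes were DEGs, Fcrls had 1.14 (0.44 to 1.84, unadjusted p = 0.00216, adjusted p = 0.146), Aif1 1.63 (0.38 to 2.88, adjusted p = 0.285) and Gpr34 0.82 (−0.13 to 1.78, adjusted p = 0.522). For the other 6 genes the interaction lay between −0.32 (Siglech) and 0.50 (P2ry13).

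The ligands of these receptors were tested in the same fit. Cx3cl1, the fractalkine that Cx3cr1 binds, had a mean of 1277 normalized counts among WT/WT and 1217 among 304Q/304Q mice at 2 months and of 1557 and 1583 at 12 months, and passed the adjusted p with age in both genotypes, with log2 fold changes of 0.29 (adjusted p = 0.00689) and 0.38 (adjusted p = 0.000368) that stayed under 0.5. Both ligands of Csf1r missed the threshold in all 5 comparisons, Csf1 with 0.27 with age in WT/WT mice (adjusted p = 0.0558) and 0.21 in 304Q/304Q mice, and Il34 with 0.18 and −0.09. Tgfb1, which encodes transforming growth factor beta 1, was a DEG with age in WT/WT mice (log2 fold change 0.63, adjusted p = 0.0359), its normalized counts going from 82.4 ± 22.35 to 128 ± 18.6 (SD, n = 5), and in 304Q/304Q mice it had 0.26. The Tgfb1 call was lost when any 1 of 7 of the 10 WT/WT libraries was left out (replicates 1, 3 and 4 at 2 months and 2, 3, 4 and 5 at 12 months), with log2 fold changes of 0.55 to 0.63 and adjusted p-values of 0.0629 to 0.106, and also with surrogate variables (0.43, adjusted p = 0.288), with only the 2 groups compared (0.63, adjusted p = 0.0571), with trends of GC content and length removed (0.58, adjusted p = 0.0564) and without the libraries over 100 CPM of choroid plexus markers (0.72, adjusted p = 0.0633). The TGF-beta receptor genes Tgfbr1 and Tgfbr2 and the signal transducer Smad3 passed in none of the 5 comparisons, with Tgfbr1 closest at 12 months between the genotypes (0.48, adjusted p = 0.0559). Of these 7 genes 1 was a DEG with age in WT/WT mice and 0 in any other comparison.

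Of the transcription factors of microglia beside Sall1, Irf8, an interferon regulatory factor of the myeloid lineage, rose with age in 304Q/304Q mice in the fit without the limit (log2 fold change 1.07, adjusted p = 0.0264) and had 0.77 (adjusted p = 0.156) in WT/WT mice. Spi1, which encodes PU.1, had 0.96 (WT/WT) and 0.69 (304Q/304Q) and Runx1 0.71 and 0.92, on means of 17.6 and 13.4 reads a library, and neither passed. Mef2a and Mef2c, which neurons express as well, were the 2 of these 6 genes above the limit on counts and were DEGs in none of the 5 comparisons. None of the 6 was a DEG between the genotypes at either age.

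Other genes of microglia gave the scale against which the 10 can be read. Of 8 tested genes shared by microglia and other macrophages, 7 rose with age as DEGs among WT/WT and 8 among 304Q/304Q mice. Of all genes, 2.58% and 2.28% were DEGs in these comparisons. None of these called genes overlapped between the ages. They were called on the same values and the share of all genes without overlap was not counted, so this adds nothing to the calls. The call of Fcer1g in WT/WT mice (0.71) was lost without the libraries over 100 CPM of choroid plexus markers (0.65, adjusted p = 0.114), with surrogate variables (0.66, adjusted p = 0.0796), with only the 2 groups compared (adjusted p = 0.0708) and with trends removed (0.59, adjusted p = 0.0605). Complement C1qa went from 299 to 502.6 mean normalized counts in WT/WT (log2 fold change 0.75) and from 258 to 632 in 304Q/304Q mice (1.29), and the lysosomal protease Ctss from 326 to 680.4 (1.06) and from 308 to 717 (1.22). All 11 genes of that list, the 3 below the limit included, summed to 100.5 to 115 CPM in the WT/WT and 97.2 to 108 CPM in the 304Q/304Q mice at 2 months and 176 to 211 CPM and 186 to 235 CPM at 12 months. The 10 homeostatic genes summed to 77.2 to 88.5 CPM among WT/WT and 77.6 to 89.1 CPM among 304Q/304Q mice at 2 months and to 85.3 to 109.7 CPM and 95.9 to 116.5 CPM at 12 months, so both summed levels had a higher mean at 12 months and the shared genes had the wider gap between the ages.

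**Figure D4:**
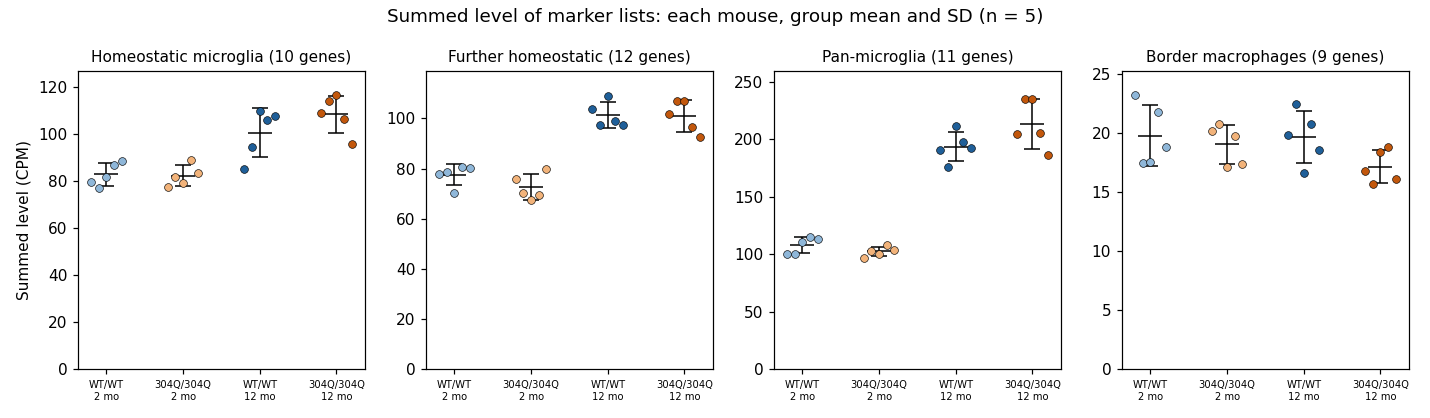
Summed level in CPM (y axis, linear and from 0) of 4 marker lists in each mouse, by genotype and age (x axis), with the mean and SD of 5 mice. The shared microglia and macrophage genes sit at 97.2 to 115 CPM at 2 months and 176 to 235 CPM at 12 months, and the 10 homeostatic genes at 77.2 to 89.1 CPM and 85.3 to 116.5 CPM.

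Among 12 further genes of homeostatic microglia, 5 had a mean of at least 50 counts. Of these 5, 2 were DEGs with age among WT/WT and 3 among 304Q/304Q mice, where 2.58% and 2.28% of all genes were. Selplg, the ligand of P-selectin, had 0.66 (adjusted p = 0.00521) and 0.59 (adjusted p = 0.0112). Olfml3 had 0.36 in WT/WT and was a DEG in 304Q/304Q mice (0.65, adjusted p = 0.00252). The Selplg call in 304Q/304Q mice was lost without replicate 3 at 2 or at 12 months (0.48 and 0.49) and without the libraries over 100 CPM of choroid plexus markers (0.40, adjusted p = 0.119). Mertk, a receptor for the uptake of dying cells, passed the adjusted p between the genotypes at 12 months, lower in 304Q/304Q mice, with a log2 fold change under 0.5 in size (−0.44, adjusted p = 0.0379). Below the limit, P2ry6, a UDP receptor linked to phagocytosis, rose with age in 304Q/304Q mice (1.497, adjusted p = 0.0114). In that fit 1.19% of all genes were DEGs. The median log2 fold change with age over the tested genes was 0.26 among WT/WT and 0.28 among 304Q/304Q mice for the 7 homeostatic genes, 0.36 and 0.59 for these 5 and 0.76 and 0.995 for the 8 shared genes, beside 0.0017 and −0.0039 over all genes tested.

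**Figure D5:**
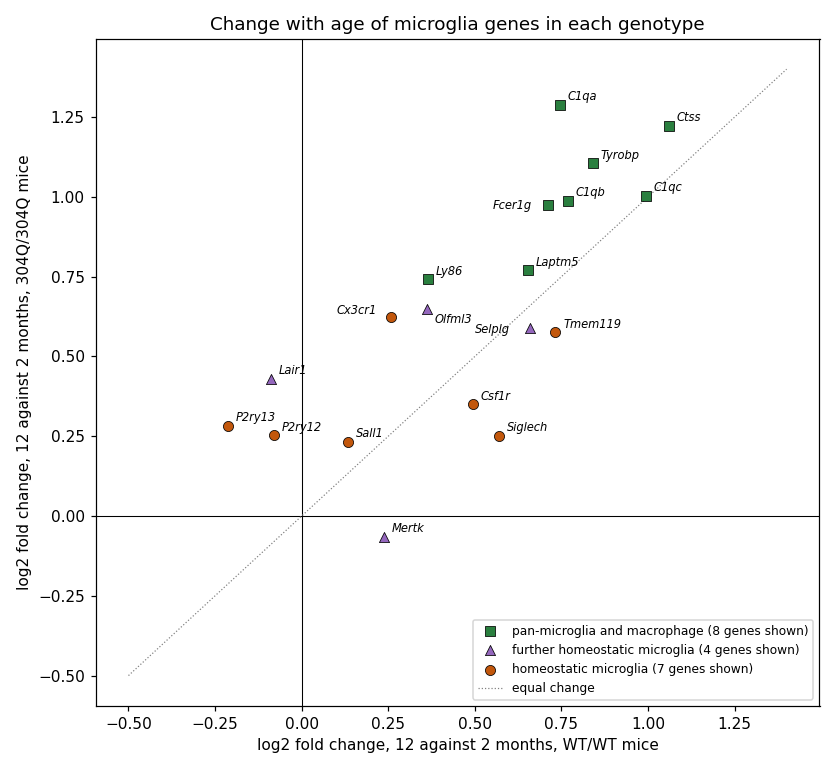
Log2 fold change of 12 over 2 months in WT/WT mice (x axis) against that in 304Q/304Q mice (y axis), with no mouse in common, for genes of 3 lists; the dotted line marks equal change. The 8 shared microglia and macrophage genes lie highest, from 0.36 to 1.06 among WT/WT and 0.74 to 1.29 among 304Q/304Q mice, and the 7 homeostatic genes lie between −0.21 and 0.73 and between 0.23 and 0.62.

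Some genes of the disease-associated state rose with age or were higher in 304Q/304Q mice. Those of the list above the limit on counts did not all move one way between the genotypes. Of its 14 genes, 10 had a mean of at least 50 counts, and Cd68, a lysosomal membrane protein of phagocytes, and Lyz2, a lysozyme, were DEGs between the genotypes at 12 months (0.73 and 0.86). Of the 10, 5 log2 fold changes were positive at 12 months and the median was −0.0065. Over all 14 genes in the fit without the limit, 9 were positive and the median was 0.28, beside 0 over all genes. In that fit 5 of the 14 were DEGs, all higher in 304Q/304Q mice, where 1.57% of all genes were DEGs. The 14 genes summed to 2493 to 2765 CPM in 304Q/304Q and 2409 to 2945 CPM in WT/WT mice. Apoe, Ctsb and Ctsd, with means of 17190, 11590 and 2936 counts a library, weigh most in this sum. Trem2, a lipid receptor of microglia, rose with age in WT/WT (42.5 to 84.1 mean normalized counts, log2 fold change 0.98, adjusted p = 0.00415) and in 304Q/304Q mice (47.7 to 118, 1.31, adjusted p = 0.000103), as did Lyz2 (0.81 and 1.61). Cd68 was a DEG with age in 304Q/304Q mice (1.015, adjusted p = 0.000268) and had 0.45 (adjusted p = 0.0944) in WT/WT mice. The Cd68 difference between the genotypes lost its call with surrogate variables and, with that of Lyz2, without the libraries over 100 CPM of choroid plexus markers.

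In the fit without the limit, the integrin Itgax, the lectin Clec7a and the lipase Lpl were DEGs as well, each higher at 12 months in the knock-in mice. Itgax stood at 2.97 to 8.91 normalized counts among WT/WT and 23.7 to 49.8 among 304Q/304Q mice (log2 fold change 2.60, adjusted p = 0.00427), Clec7a at 5.01 to 16.7 and 25.1 to 56.2 (1.75, adjusted p = 0.0121) and Lpl, which other cells express too, at 2.14 to 15.6 and 13.4 to 70.9 (2.22, adjusted p = 0.000572). The groups overlapped for Lpl and not for Itgax and Clec7a. With age the 3 genes and Cst7, an inhibitor of cathepsins, were DEGs in 304Q/304Q mice, where Cst7 stood at 0 to 2.03 normalized counts at 2 months and 6.25 to 25.5 at 12 months.

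Among themselves the homeostatic genes were loosely related over the 20 libraries. For the 7 tested members, Pearson's r of log2 CPM over the 21 pairs ran from −0.142 to 0.747 with a median of 0.213, and 17 pairs were positive. Tmem119 and Csf1r were the closest pair (r = 0.747, and 0.351 after the group means were removed), and Cx3cr1 and Csf1r followed (0.613 and 0.308). After the group means were removed the median r was 0.0784. The genes outside the 10 whose level was most like the mean log2 CPM of the 10 over the 20 libraries were Cd68 (r = 0.877), Eef2 (0.866), Trem2 (0.854), C1qa (0.85) and Prkar1b (0.845), of which Cd68, Trem2 and C1qa are microglia genes. They are the highest of all genes above the limit on counts. With group means removed, their r was 0.633, 0.631, 0.647, 0.668 and 0.547 in that order. All points share libraries, depth and base composition with the members.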

How the data were processed

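Cerebellum polyA RNA of 20 mice was sequenced as stranded, paired-end libraries. Raw counts per gene were deposited, which the authors made with Rsubread after STAR alignment to Ensembl GRCm38. Whether counting used the strand is not given in the sources used here. Library totals ranged from 11385380 to 27636687 counts (median 13522932.5).

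Counts were tested with edgeR 4.0.16 in R 4.3.3 (quasi-likelihood, TMM scaling, 1 term per group, Benjamini-Hochberg over all genes tested), on the 12153 genes averaging 50 counts or more, which held 99.3% of the counts. The study's thresholds defined a DEG: adjusted p no higher than 0.05, and 0.5 or more on the log2 scale in either direction. Members under the limit came from the same fit over all 29200 genes. Intervals are 95%. Normalized counts are TMM-scaled counts at the mean library size of 14205820. RPKM used the union exon length of GENCODE M21. The 250 bases before each RefSeq start were searched on both strands. The labels do not say that mice of a group were from separate litters, so p-values measure the spread between these samples. The closest replicates differed by more than counting noise (chi-square 4.43 per degree of freedom or more), so no library was counted as a repeat.

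The members and lists were chosen with earlier results of these data known. All members, the ligands and transcription factors, every listed gene that was a DEG in at least 1 comparison, the 5 genes most like the members' mean, and Atxn3 could be named. The age and genotype comparisons share groups. Alternatives were DESeq2 1.42.0, surrogate variables (sva 3.50.0), other filters and scaling, a replicate block, single libraries left out and, added after the data were seen, leaving out libraries with choroid plexus RNA and removing trends with GC content and length. Replicate numbers did not pair the mice. The script was tested on simulated data. Figures used matplotlib 3.10.9. Results of some listed genes are not reported here.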

Additional observations from a re-analysis of the deposited data

Results flagged for a closer look

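Of 40 groups of 5 mice, 1 for each of the 10 genes in each of the 4 groups, 2 held a mouse far from the other 4, and chance gives about 1 in 20. Aif1 was at 1.762 normalized counts in 304Q/304Q replicate 5 at 2 months, where the next lowest mouse had 10.73. Gpr34 was at 60.8 normalized counts in WT/WT replicate 3 at 2 months, where the next highest mouse had 25.13. Both genes were below the limit on counts.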

How the results depend on the processing

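Depth limits Aif1, Gpr34 and Fcrls, whose reads ran from 2 to 84 a library. Replicate numbers do not pair the mice: the correlation of deviations over 30 same-number pairs ran from −0.323 to 0.551, 6 were over 0.1, and 4 of 20 mice correlated best with their own number. With the replicate block, Fcrls was a DEG with age in WT/WT mice (−0.81, adjusted p = 0.0309), Gpr34 in that comparison had 0.078, and no count of members or genes moved by over 1.5 times. The cause of the changes below was not tested.

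By DESeq2, 8 genes were DEGs at 2 months, 2 members with age in 304Q/304Q mice and 173 genes in the interaction. DESeq2 with surrogate variables gave 10 genes at 2 months, 203 with age in WT/WT mice and 2 members in 304Q/304Q mice, and edgeR with them 9, 185 and 2, with 0 members in WT/WT mice. Without a filter, 3 genes at 2 months and 1 member at 12 months were DEGs. With filterByExpr it was 1 member at 12 months and 2 with age in WT/WT mice. With only the 2 groups compared, with age 0 members passed among WT/WT mice, against 2 among 304Q/304Q mice. Without the fold threshold, 6 genes passed at 2 months, 1523 at 12 months, 1398 with 2 members with age in WT/WT mice, 882 with 2 members in 304Q/304Q mice and 237 in the interaction. Without the libraries with choroid plexus RNA, chosen after the data were seen, with age 2 members passed among WT/WT mice, against 0 among 304Q/304Q mice, and 75 genes in the interaction. With GC content and length trends removed, also chosen then, 3 genes passed at 2 months and 204 with 0 members with age in WT/WT mice. With at least 50 counts in every library, fewer members could be tested.

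Leaving out 1 library gave 1 to 2 genes at 2 months, 0 to 2 members and 205 (without WT/WT replicate 1 at 2 months) to 595 genes (without WT/WT replicate 1 at 12 months) with age in WT/WT mice, 1 to 2 members in 304Q/304Q mice and 75 (without WT/WT replicate 3 at 12 months) to 265 genes (without WT/WT replicate 1 at 12 months) in the interaction.

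Directions turned for small log2 fold changes. With surrogate variables in DESeq2, Csf1r at 2 months had −0.028, P2ry12 and P2ry13 at 12 months −0.035 and −0.13, P2ry12 and Gpr34 with age in WT/WT mice 0.27 and 0.32, and P2ry12 in the interaction −0.10; edgeR gave −0.030, −0.040, −0.13, 0.27, 0.32 and −0.11. Without the libraries with choroid plexus RNA, Tmem119 at 2 months had 0.025, and P2ry12 and Gpr34 with age in WT/WT mice 0.051 and 0.29. With trends removed, the last 2 had 0.12 and 0.24 and Tmem119 in the interaction 0.0023. With 1 library left out, the 2-month values ran from −0.12 to 0.023 (Cx3cr1), −0.14 to 0.12 (P2ry12), −0.12 to 0.087 (Tmem119), −0.030 to 0.057 (Csf1r), −0.30 to 0.012 (Fcrls) and −0.47 to 0.16 (Gpr34), and those with age in WT/WT mice from −0.19 to 0.014 (P2ry12) and −0.19 to 0.48 (Gpr34).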
